A study of Caenorhabditis elegans with 6 samples.

Results

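The ceh and tbx genes of Caenorhabditis elegans encode most of its homeobox transcription factors and all but a few of its T-box transcription factors. Every gene of the deposited count table whose symbol in the WBcel235 annotation starts with ceh- or tbx- was taken, whatever its values. This gave 82 of 46926 genes, 63 ceh genes and 19 tbx genes, with the symbol tbx-30 naming 2 of them. Their transcripts were compared between wild-type worms on 50 µM FUDR (5-fluoro-2′-deoxyuridine, a nucleoside analogue that inhibits thymidylate synthase and is used to stop worms producing progeny) and untreated wild-type worms on the bacterium Escherichia coli OP50. Each group had 3 libraries of poly(A) RNA from whole worms labelled as L4, the last larval stage. The stage is known from the labels alone and was not tested. Oocyte transcripts, given below, were abundant in both groups. No allele or transgene is given in the labels, and no start or length of the exposure to FUDR is stated in the sources used here. Separate cultures for the libraries are not stated in the labels, and p-values then reflect library spread alone, which may be technical.

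Homeobox factors bind DNA through a homeodomain and, in worms as in other animals, set regional and cell type identity. Hox proteins act along the body axis with Pbx-type (PBC) and Meis-type partners, NK-like and sine oculis-like factors specify pharyngeal and muscle cells, and the POU, LIM, paired-like and CUT or ONECUT classes specify neurons and other tissues. T-box factors share another DNA-binding domain and act mainly in the embryo, in mesoderm, epidermis and pharynx. In an intact worm most of these genes are transcribed in few cells, so their transcripts are a small part of whole-worm RNA.

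The FUDR libraries held 61312034, 84750980 and 78769746 counts over genes, and the OP50 libraries held 99234226, 66005990 and 80981975. Levels below are CPM, the counts per common library size after scaling with TMM factors, and 3 counts in a library correspond to between 0.0315 and 0.0496 CPM, a floor that covers counting error only. Fold changes are FUDR over OP50 on the log2 scale with a standard error (SE), and a gene is called at a Benjamini-Hochberg adjusted p under 0.05 over all 17022 genes that passed the count filter, in edgeR's quasi-likelihood test. Libraries of 1 group had log2 CPM correlations of 0.984 to 0.992, and libraries of different groups 0.958 to 0.970.

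Of the 82 ceh and tbx genes, 60 passed the filter on low counts, 52 ceh and 8 tbx. Of these, 8 were higher in FUDR, 13 were lower, and 39 were not called. The 21 calls are 35.0% of the tested members, while 41.0% of all tested genes were called. By direction, 13.3% of tested members were higher and 21.7% lower, against 20.0 percent higher and 21.0 percent lower among all tested genes. The called share of ceh and tbx genes together was therefore no larger than that of the transcriptome. Taken apart, 30.8% of the 52 tested ceh genes and 62.5% of the 8 tested tbx genes were called. The median log2 fold change of the 60 tested members was 0.17, against 0.05 over all tested genes. Most changes were small. The rise reached 2-fold in tbx-43 and ceh-57, and the fall reached 2-fold in ceh-82 and ceh-40. No FUDR library overlapped the OP50 range in 28 of the 60 tested members (46.7%), 15 higher and 13 lower, where this held for 54.7 percent of all tested genes. All 21 called members are among those 28.

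**Figure D1:**
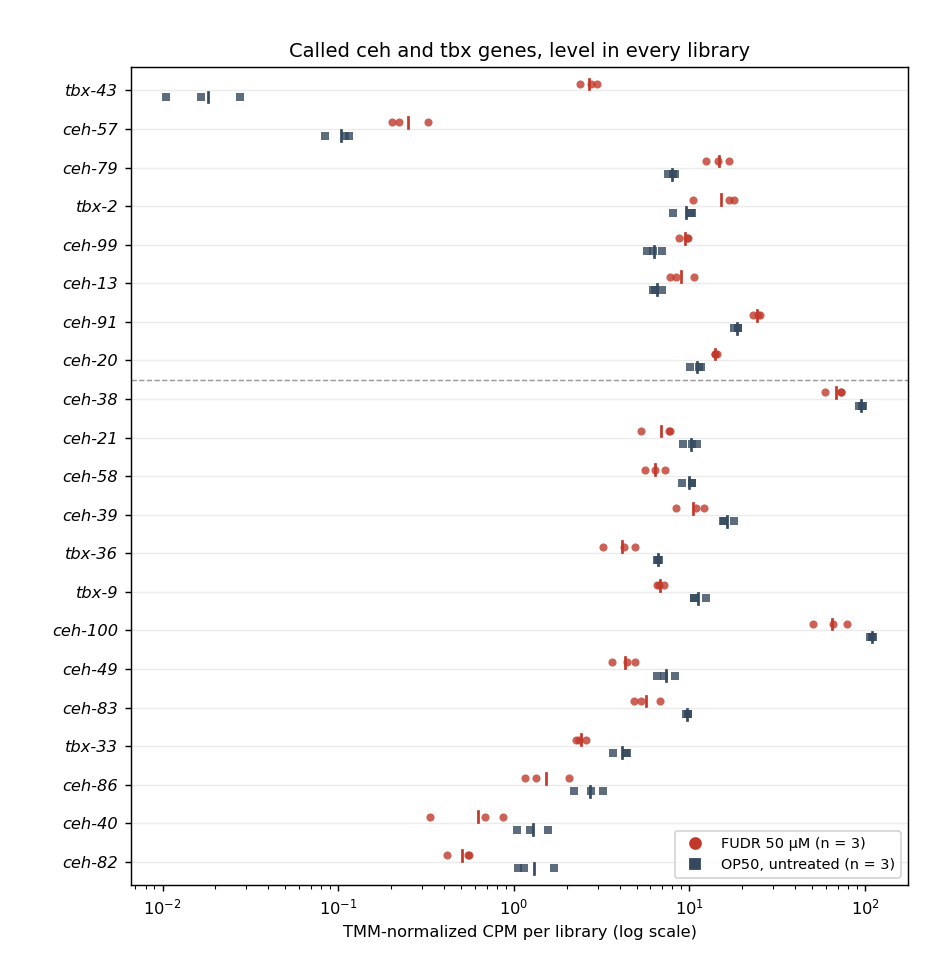
Level of each of the 21 called ceh and tbx genes in every library, in TMM-normalized CPM on a log axis, with FUDR libraries as red circles and OP50 libraries as dark squares (3 each) and a short bar at each group mean. Genes run from the highest fold change at the top to the lowest, a dashed line parts the 8 that rose from the 13 that fell, and tbx-43 is the one gene whose groups lie more than 10-fold apart.

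Called members were mostly those with high levels. Among 24 members with a mean of at least 5 CPM, 6 were higher and 9 lower, where 17.4 percent of all tested genes at that level were higher and 32.2 percent lower. Among 13 members between 1 and 5 CPM, tbx-43 was higher and ceh-86 and tbx-33 were lower, where 27.1 percent of genes at that level were higher and 5.05 percent lower. Among 23 members under 1 CPM, ceh-57 was higher and ceh-82 and ceh-40 were lower, where 20.5 percent of genes at that level were higher and 2.45 percent lower. A low count gives a wide error: the SE was 0.680 for ceh-5, with a mean of 0.216 CPM in FUDR and 0.0607 CPM in OP50, and 0.0972 for ceh-38, with 68.3 CPM in FUDR and 95.3 CPM in OP50.

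**Figure D2:**
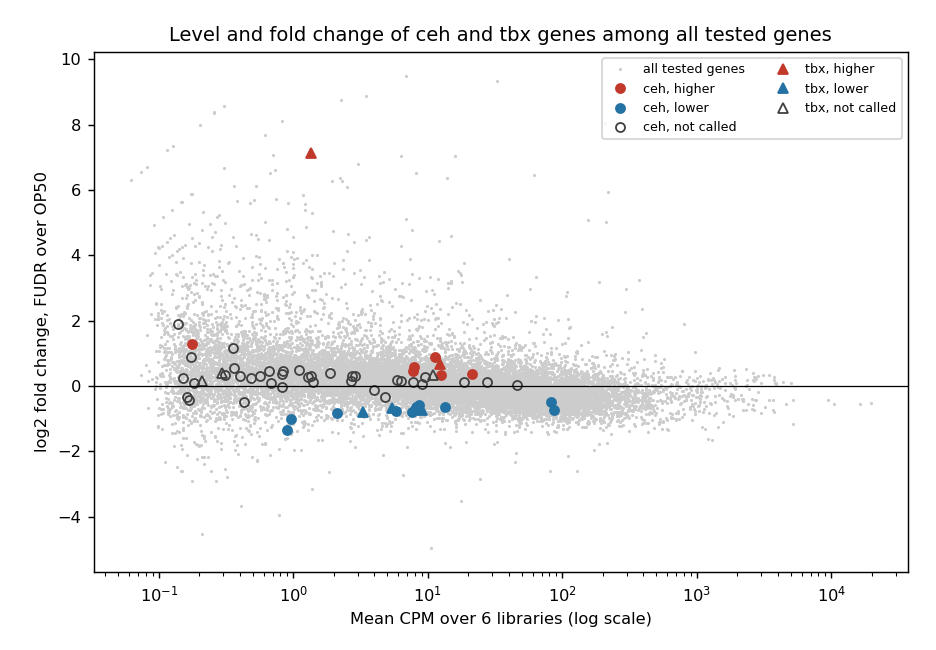
Log2 fold change, FUDR over OP50, against mean CPM over the 6 libraries on a log axis for all 17022 tested genes (grey) and the 60 tested ceh (circles) and tbx (triangles) genes, coloured by call. The triangle at 7.14 is tbx-43, and the other called members lie between −1.36 and 1.29.

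The T-box genes hold the largest change of the family. The gene tbx-43 (WBGene00044798, chromosome III, 1765407 to 1770093, minus strand, WBcel235) encodes a T-box protein. It had 2.74, 2.97 and 2.39 CPM in the FUDR libraries, against 0.0105, 0.0165 and 0.0275 CPM in the OP50 libraries. Each OP50 value is under the floor of 3 counts, and every FUDR library lies well above it. In raw counts these were 172, 274 and 213 in FUDR and 1, 1 and 2 in OP50. Summed over libraries, 659 counts in FUDR stood against 4 in OP50, a ratio of 154 after scaling with a 95% exact interval from 59.8 to 567 that covers counting error only. The fitted log2 fold change was 7.14 ± 0.34 (SE, n = 3 libraries each, edgeR adjusted p = 9.95e-06), a size that depends on the prior count since OP50 was near 0. Per kilobase of exon, tbx-43 had the lowest OP50 level of any tested member, 0.0187 CPM per kb, and 2.78 CPM per kb in FUDR. It passed the count filter through its FUDR counts alone, so this rank follows from the filter. The untested ceh-12 had 0.175 CPM per kb in OP50. The exons of tbx-43 overlap no other annotated gene. The nearest tested protein-coding gene on one side, Y39A3CL.4, lies 2422 bases away and was lower in FUDR (38.9 CPM in FUDR, 49.0 CPM in OP50, log2 fold change −0.33). On the other side the nearest is the serotonin receptor gene ser-4, 32305 bases away and higher in FUDR (11.4 CPM in FUDR, 3.84 CPM in OP50, log2 fold change 1.57).

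The other T-box gene called higher was tbx-2 (chromosome III, 5130923 to 5136296, minus strand), which encodes the worm TBX2-type factor needed to make anterior pharyngeal muscle in the embryo. It had 18.0, 16.8 and 10.5 CPM in FUDR and 10.3, 8.08 and 10.3 CPM in OP50. The groups do not overlap, but the lowest FUDR library is close to the upper OP50 libraries. The log2 fold change was 0.66 ± 0.200 (edgeR adjusted p = 0.0277). The adjusted p was 0.0506, 0.0978 and 0.0528 on leaving out OP50 replicate 1, 2 and 3 and 0.0765 and 0.0967 on leaving out FUDR replicate 1 and 2, which ends the call, and it was 0.000623 on leaving out FUDR replicate 3. Pharyngeal muscle transcripts also spread in the same libraries: the summed level of 14 such genes ran from 577 to 1332 CPM in FUDR and from 945 to 1320 CPM in OP50, with 3 members higher and 1 lower. Their part in the tbx-2 result was not tested.

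Lower in FUDR were tbx-9, tbx-33 and tbx-36. The gene tbx-9 (chromosome III, 10340006 to 10341858, minus strand) acts with its neighbour tbx-8 in shaping the embryonic body. It had 6.68, 7.17 and 6.58 CPM in FUDR, against 10.6, 12.3 and 10.7 CPM in OP50 (log2 fold change −0.72 ± 0.112, edgeR adjusted p = 0.0014). Its partner tbx-8, 5490 bases away, was too low to test, with at most 3 counts in any library. For tbx-33 (chromosome III, 11633216 to 11636840, minus strand) the FUDR libraries had 2.58, 2.26 and 2.36 CPM and the OP50 libraries 4.35, 3.65 and 4.44 CPM (log2 fold change −0.79 ± 0.149, edgeR adjusted p = 0.00332). For tbx-36 (chromosome IV, 11950570 to 11952208, plus strand) they had 4.26, 4.89 and 3.21 CPM in FUDR and 6.54, 6.60 and 6.71 CPM in OP50 (log2 fold change −0.68 ± 0.165, edgeR adjusted p = 0.0106). In each of these 3 genes the highest FUDR library was below the lowest OP50 library. Each was also called when any 1 library was left out.

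The remaining tested tbx genes were not called. The gene tbx-34 had 11.9, 11.7 and 13 CPM in FUDR and 11.7, 8.88 and 8.57 CPM in OP50 (log2 fold change 0.32 ± 0.137, edgeR adjusted p = 0.0879). Per length it was the tbx gene with the second highest level in OP50, at 12.6 CPM per kb in FUDR and 10.1 CPM per kb in OP50. First was tbx-9, with 7.21 CPM per kb in FUDR and 11.9 CPM per kb in OP50. The gene tbx-7 averaged 0.340 CPM in FUDR and 0.252 CPM in OP50, and tbx-11 averaged 0.222 CPM in FUDR and 0.196 CPM in OP50. The summed level of the tbx genes that passed or missed the filter was 46.9, 46.3 and 38.8 CPM in FUDR and 44.0, 40.3 and 41.3 CPM in OP50, which overlap.

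**Figure D3:**
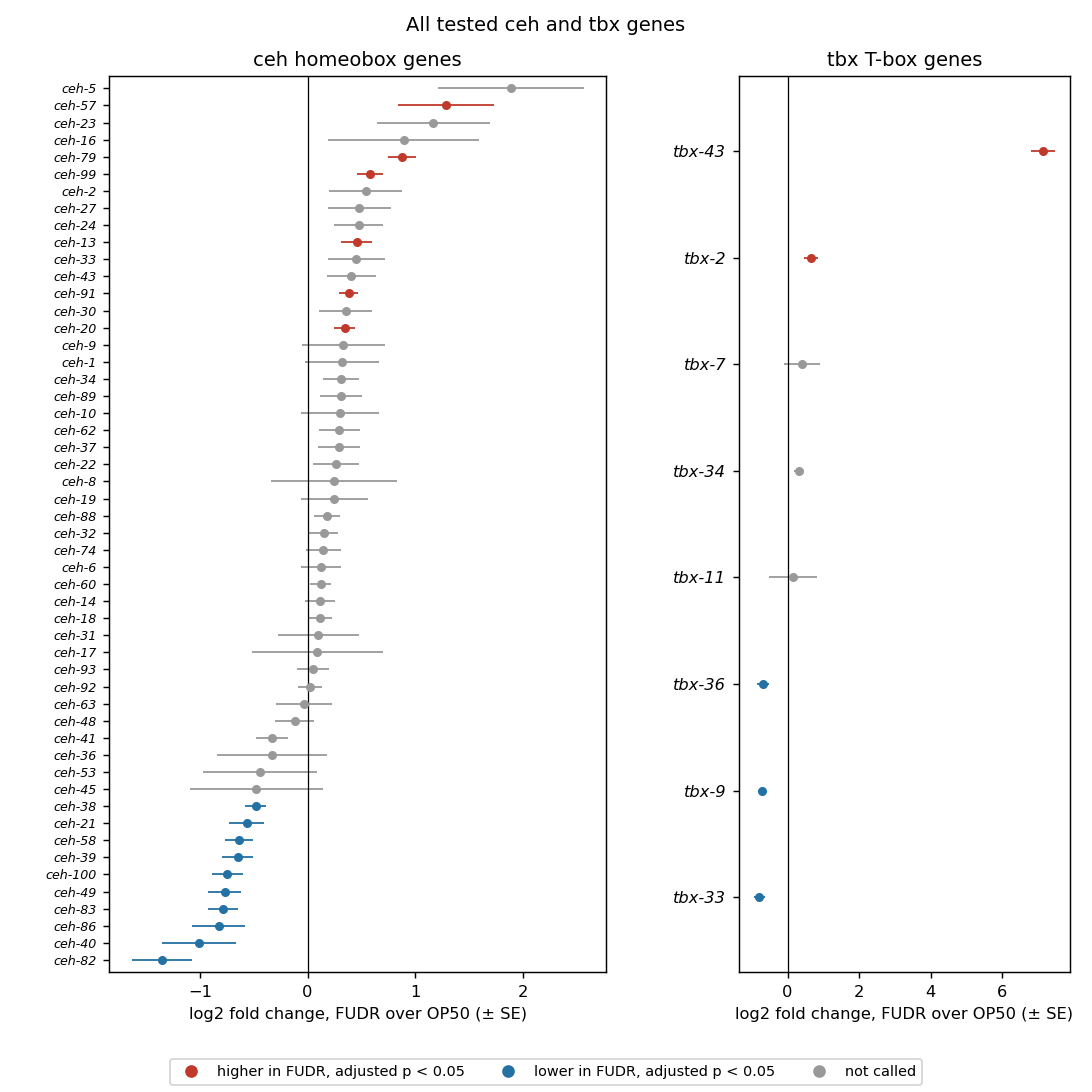
Log2 fold change, FUDR over OP50, with its standard error for each of the 52 tested ceh genes (left) and 8 tested tbx genes (right), coloured by call and ordered from highest to lowest. The calls are 6 higher and 10 lower among ceh genes (30.8% called) and 2 higher and 3 lower among tbx genes (62.5% called). Among all tested genes 41.0% were called. The widest bars belong to genes under 1 CPM, among them ceh-16, ceh-5 and tbx-11.

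Among the ceh genes, 4 of the 6 tested members of the CUT and ONECUT class were called lower in FUDR. These proteins carry 1 or more CUT domains beside the homeodomain, and in worms they act together to keep up genes shared by all neurons. All 6 tested members had negative log2 fold changes, with a median of −0.52, though ceh-48 was positive (0.12) with library size only. The 4 called have means of at least 5 CPM, a level at which 32.2 percent of all tested genes were lower and 41.7% had positive log2 fold changes. The most abundant was ceh-38 (chromosome II, 6951526 to 6955409, plus strand), with 72.8, 73.0 and 59.2 CPM in FUDR, against 95.4, 97.6 and 93 CPM in OP50. Its log2 fold change was −0.48 ± 0.0972 (edgeR adjusted p = 0.00471). The exons of ceh-38 overlap 26 exon bases of the sex determination gene tra-2 on the opposite strand, which was also lower (log2 fold change −0.69). In all, 20 members share exon bases with another annotated gene, and of the called ones ceh-20 shares 134 with a noncoding RNA gene and ceh-40 shares 59 with xtr-2, also on the opposite strand. The strand setting of the counting is not stated in the sources used here, so reads of such pairs may not be told apart.

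A second group of this class lies on chromosome X, where ceh-41, ceh-21 and ceh-39 stand 103 and 1137 bases apart on the minus strand. The protein-coding gene T26C11.9 lies between ceh-21 and ceh-39. It was not called (0.536 CPM in FUDR, 0.413 CPM in OP50, log2 fold change 0.39). The gene ceh-39 (chromosome X, 1853874 to 1856172) is an X-signal element, 1 of the X-linked genes whose dose sets sex in the early embryo by repressing xol-1. It had 12.1, 10.9 and 8.37 CPM in FUDR and 17.9, 15.4 and 15.7 CPM in OP50 (log2 fold change −0.65 ± 0.144, edgeR adjusted p = 0.00725). Beyond T26C11.9, ceh-21 (chromosome X, 1848779 to 1852736) had 7.72, 7.68 and 5.27 CPM in FUDR and 11, 10.3 and 9.22 CPM in OP50 (log2 fold change −0.57 ± 0.163, edgeR adjusted p = 0.0224). The ceh-21 call was lost on leaving out OP50 replicate 1 (adjusted p = 0.0681) or 2 (0.0622), under upper quartile scaling (0.0566) and under library size only (0.103). The third of this group, ceh-41, had 3.79, 4.18 and 4.74 CPM in FUDR and 5.55, 5.84 and 4.59 CPM in OP50 and was not called (−0.33 ± 0.150, edgeR adjusted p = 0.110). Its groups overlap.

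Elsewhere in this class, ceh-49 (chromosome V, 6118333 to 6120206, minus strand) had 4.42, 4.89 and 3.63 CPM in FUDR and 8.30, 7.21 and 6.55 CPM in OP50 (log2 fold change −0.77 ± 0.155, edgeR adjusted p = 0.00461). The gene ceh-48, which is expressed in all neurons, had 2.83, 4.14 and 4.49 CPM in FUDR and 4.25, 3.90 and 4.34 CPM in OP50 and was not called (−0.12 ± 0.183, edgeR adjusted p = 0.629). Of 25 pan-neuronal genes in the same libraries, 44.0% were called where 41.0% of all tested genes were, 5 higher and 6 lower. Their median log2 fold change was 0.08, and 15 of the 25 had positive values. Their summed level, to which abundant genes add most, was 1369 to 1545 CPM in FUDR and 1653 to 1669 CPM in OP50. Leaving out OP50 replicate 2 left 1 of the 25 genes called higher, and leaving out OP50 replicate 3 or FUDR replicate 2 left 3.

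The PBC genes moved in different directions. These encode the worm Pbx-type partners of Hox proteins. The gene ceh-20 (chromosome III, 6979884 to 6981785, plus strand) was higher, with 13.9, 13.9 and 14.4 CPM in FUDR and 11.4, 10.1 and 11.7 CPM in OP50 (log2 fold change 0.35 ± 0.0994, edgeR adjusted p = 0.0221). It was not called on leaving out OP50 replicate 2 (adjusted p = 0.104) or FUDR replicate 2 (0.0645). Its paralogue ceh-40 (chromosome X, 12318126 to 12320777, minus strand) was lower, with 0.334, 0.866 and 0.684 CPM in FUDR and 1.24, 1.57 and 1.04 CPM in OP50 (log2 fold change −1.01 ± 0.343, edgeR adjusted p = 0.0436). The ceh-40 call was lost on leaving out OP50 replicate 1, 2 or 3 (adjusted p = 0.0834, 0.131 and 0.0528), on leaving out FUDR replicate 1 or 3 (0.0718 and 0.0613), under upper quartile scaling (0.0774) and under library size only (0.106). The third, ceh-60, which promotes yolk protein production in the intestine, had 19.9, 17.9 and 20.4 CPM in FUDR and 17.3, 17 and 19.1 CPM in OP50 and was not called (0.12 ± 0.097, edgeR adjusted p = 0.336).

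Of the Hox genes, ceh-13 is the only one with a ceh symbol and is the worm labial homologue, which acts in the anterior embryo. The level of ceh-13 (chromosome III, 7555660 to 7558041, plus strand) was 7.80, 8.36 and 10.7 CPM in FUDR and 6.94, 6.23 and 6.39 CPM in OP50. Every FUDR library lay above every OP50 library, and the log2 fold change was 0.46 ± 0.142 (edgeR adjusted p = 0.0309). The call was lost on leaving out OP50 replicate 1, 2 or 3 (adjusted p = 0.0536, 0.102 and 0.0893) and on leaving out FUDR replicate 2 or 3 (0.0623 and 0.0719).

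The 6 worm Hox genes could be set side by side, with ceh-13 and 5 that carry other names, and 4 of the 6 were called higher and 0 lower. Among all tested genes, 17.4 percent of those of at least 5 CPM and 27.1 percent of those between 1 and 5 CPM were higher, and the Hox genes were brought together after the values were seen. The posterior, Abdominal-B-like gene nob-1 had 14.3, 13.6 and 11.1 CPM in FUDR and 4.69, 4.28 and 5.03 CPM in OP50 (log2 fold change 1.48 ± 0.134, edgeR adjusted p = 0.00016). Its paralogue php-3 had 12.5, 11.4 and 9.94 CPM in FUDR and 9.0, 7.84 and 7.56 CPM in OP50 (0.47, edgeR adjusted p = 0.017). The mid-body gene mab-5 had 3.99, 4.13 and 5.55 CPM in FUDR and 2.97, 3.46 and 3.41 CPM in OP50 (0.48, edgeR adjusted p = 0.0484). Not called were lin-39, which acts in the vulva and had 7.11, 6.64 and 7.15 CPM in FUDR and 5.72, 6.10 and 5.98 CPM in OP50, and egl-5, which acts in the tail and had 1.81, 1.99 and 2.19 CPM in FUDR and 1.93, 1.60 and 1.46 CPM in OP50. The groups do not overlap for lin-39 (0.23 ± 0.111, edgeR adjusted p = 0.125) and do for egl-5 (0.26, edgeR adjusted p = 0.287). Only the nob-1 rise was called in every fit that left out 1 library: php-3 was lost on leaving out OP50 replicate 2 or 3 or FUDR replicate 2 (adjusted p = 0.0680, 0.0697 and 0.0583), and mab-5 on leaving out OP50 replicate 1, 2 or 3 or FUDR replicate 2 or 3 (between 0.0752 and 0.141). The mab-5 call was also lost with RLE scaling (adjusted p = 0.0556), without a filter (0.0552) and with the replicate number as a block (0.0504).

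Some genes of a list written for males were also higher in FUDR. Of 8 tested genes in this list of 15, 4 rose and 0 fell, and the summed level was 8.18 to 12.5 CPM in FUDR and 3.26 to 3.75 CPM in OP50. Among all tested genes, 20.5 percent of those under 1 CPM and 27.1 percent of those between 1 and 5 CPM were higher. The listed genes that rose were the male seminal protease gene try-5 (3.09 CPM in FUDR and 0.284 CPM in OP50), tbb-6 (4.25 CPM in FUDR and 1.38 CPM in OP50), the kinesin gene klp-6 of male-specific and other ciliated neurons (0.765 CPM in FUDR and 0.260 CPM in OP50) and clec-207 (0.350 CPM in FUDR and 0.0879 CPM in OP50). The summed means were 10.7 CPM in FUDR and 3.54 CPM in OP50, of which tbb-6 is a large part. How specific each listed gene is to males was not tested. The call of clec-207 was lost without OP50 replicate 1 (edgeR adjusted p = 0.0665), OP50 replicate 3 (0.0663) or FUDR replicate 2 (0.0894). The male-specific neuron genes pkd-2 and lov-1 had too few reads to be tested, with at most 10 and 7 counts in any library. Several posterior Hox genes are known to act in the male tail, and the part of males in the Hox results was not tested.

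The Meis-type Hox partners were not called: unc-62 had 71.3, 60.7 and 48.3 CPM in FUDR and 60.9, 55.5 and 61.2 CPM in OP50 (0.02, edgeR adjusted p = 0.913), and psa-3 gave −0.18 (edgeR adjusted p = 0.533).

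The classes that specify neurons, pharynx and muscle gave few calls. Across the ANTP (Hox-like and NK-like), paired-like, POU, LIM and sine oculis-like classes 29 genes were tested, and ceh-13 was the single call, against 41.0% of all tested genes. Of these 29, 25 had positive log2 fold changes and the median was 0.30, while 18 were under 1 CPM, none of them called. Among all tested genes under 1 CPM, 23.0% were called and 72.8% had positive log2 fold changes. By class the medians were 0.38 over 16 ANTP genes, 0.09 over 7 paired-like genes and 0.31 over 3 sine oculis-like genes. In the CUT, PBC and unclassed ceh genes 23 were tested, 5 were higher and 10 lower, with a median of −0.12. These groupings were read after the values were seen and carry no test of a difference between classes.

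**Figure D4:**
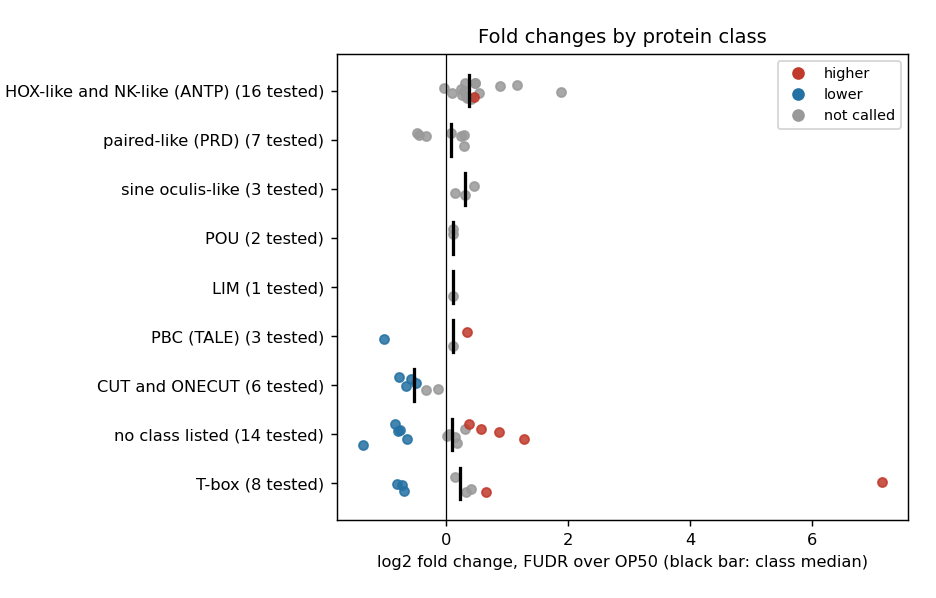
Log2 fold change, FUDR over OP50, of each tested ceh and tbx gene by protein class, coloured by call, with a black bar at the class median; points are spread vertically for visibility. The 6 CUT and ONECUT genes all lie below 0 with a median of −0.52 (ceh-48 is above 0 with library size only), and the ANTP, paired-like, sine oculis-like, POU and LIM classes hold 1 called gene, ceh-13.

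Several of these factors had clear levels in both groups. The POU gene ceh-18, which acts in the gonadal sheath and in oocyte maturation, had 33.1, 28.1 and 25.2 CPM in FUDR and 26.8, 27.5 and 25.3 CPM in OP50 (0.12 ± 0.110, edgeR adjusted p = 0.423). The LIM gene ceh-14, which acts in thermosensory and other neurons, had 9.67, 7.54 and 7.06 CPM in FUDR and 7.82, 7.27 and 7.2 CPM in OP50 (0.12 ± 0.141). The Otx-like gene ceh-37 had 12.9, 11.3 and 7.14 CPM in FUDR and 8.10, 8.63 and 8.81 CPM in OP50 (0.29 ± 0.196). For all 3 the groups overlap. The sine oculis-like gene ceh-32, which acts in the head, averaged 6.67 CPM in FUDR and 6.0 CPM in OP50. Its relative ceh-34, a selector of pharyngeal neurons, averaged 3.18 CPM in FUDR and 2.55 CPM in OP50, and ceh-33, 3616 bases away, averaged 0.768 CPM in FUDR and 0.557 CPM in OP50. The ceh-33 groups do not overlap (0.45 ± 0.266, edgeR adjusted p = 0.201).

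Single-neuron and pharyngeal factors sat lower. The pharyngeal muscle NK-like gene ceh-22 averaged 1.39 CPM in FUDR and 1.15 CPM in OP50, and ceh-24, which acts in vulval and head muscle, averaged 0.975 CPM in FUDR and 0.701 CPM in OP50. The Distal-less-like gene ceh-43 averaged 2.15 CPM in FUDR and 1.62 CPM in OP50. The paired-like gene ceh-10, needed for the AIY interneurons, averaged 0.444 CPM in FUDR and 0.360 CPM in OP50, and ceh-36, needed for the AWC and ASE sensory neurons, averaged 0.147 CPM in FUDR and 0.178 CPM in OP50. The engrailed homologue ceh-16, which acts in the seam cells of the skin, averaged 0.229 CPM in FUDR and 0.120 CPM in OP50. None of these was called. For ceh-5, a Vax-like gene, the groups do not overlap: 0.127, 0.206 and 0.314 CPM in FUDR and 0.0526, 0.116 and 0.0137 CPM in OP50. Its log2 fold change was 1.89 ± 0.680 (edgeR adjusted p = 0.0525), and it was called under upper quartile scaling (adjusted p = 0.0400), with library size only (0.0313), in limma-voom (0.0433) and on leaving out OP50 replicate 2 (0.0412) or FUDR replicate 1 (0.0420). It shares 73 exon bases with ocrl-1 on the opposite strand, which was lower in FUDR (−0.55). The filter was passed through the FUDR counts of ceh-5 alone.

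The remaining calls all fell on ceh genes that were put in no class here, many of them known mainly from the genome. Of 14 tested, 4 were higher and 5 lower, a called share of 64.3%. Among all tested genes 41.0% were called, and 49.6% of those of at least 5 CPM. Among the higher ones, ceh-79 (chromosome V, 13301833 to 13304785, plus strand) had 16.9, 14.6 and 12.4 CPM in FUDR and 7.52, 8.32 and 8.08 CPM in OP50 (log2 fold change 0.88 ± 0.130, edgeR adjusted p = 0.0011). For ceh-99 (chromosome II, 12519981 to 12524478, plus strand) the FUDR libraries had 9.67, 9.84 and 8.75 CPM and the OP50 libraries 6.20, 6.94 and 5.74 CPM (0.58 ± 0.120, edgeR adjusted p = 0.00511). For ceh-91 (chromosome III, 11616746 to 11623994, plus strand) they had 24.7, 25.2 and 22.9 CPM in FUDR and 18.9, 19.0 and 17.9 CPM in OP50 (0.38 ± 0.0864, edgeR adjusted p = 0.00776). These 3 were also called in every fit that left out 1 library. The weakest call was ceh-57 (chromosome II, 10363584 to 10367296, minus strand), with 0.223, 0.325 and 0.202 CPM in FUDR and 0.0841, 0.116 and 0.110 CPM in OP50. In counts these were 14, 30 and 18 in FUDR and 8, 7 and 8 in OP50, so ceh-57 passed the filter through FUDR alone. The call (log2 fold change 1.29 ± 0.449, edgeR adjusted p = 0.0469) was lost whichever library was left out (adjusted p from 0.0646 to 0.173), with the replicate number as a block (0.0862), with RLE scaling (0.0514), without a filter (0.117), in limma-voom (0.0509) and in DESeq2 (0.0792).

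Among the lower ones, ceh-100 (chromosome II, 12582178 to 12603680, minus strand), which encodes a protein with several homeodomains, was the second most abundant member in OP50 per length. It had 78.7, 66.0 and 50.4 CPM in FUDR and 110, 110 and 107 CPM in OP50 (log2 fold change −0.75 ± 0.143, edgeR adjusted p = 0.00367). The FUDR libraries spread, and the highest of them is well below the OP50 libraries. The gene ceh-58 (chromosome II, 10367741 to 10369597, minus strand) had 7.22, 6.33 and 5.61 CPM in FUDR and 9.13, 10.4 and 10.3 CPM in OP50 (−0.64 ± 0.129, edgeR adjusted p = 0.00467). Its neighbour ceh-57, 444 bases away on the same strand, was the weak call in the other direction. The gene ceh-83 (chromosome II, 1733716 to 1736533, minus strand) had 5.33, 6.77 and 4.81 CPM in FUDR and 9.55, 9.77 and 9.84 CPM in OP50 (−0.78 ± 0.143, edgeR adjusted p = 0.00287). Next to it, 424 bases away, ceh-82 (chromosome II, 1732232 to 1733291, plus strand) had 0.557, 0.552 and 0.415 CPM in FUDR and 1.15, 1.06 and 1.69 CPM in OP50 (−1.36 ± 0.278, edgeR adjusted p = 0.00508). The gene ceh-86 (chromosome II, 2426366 to 2432072, minus strand) had 1.16, 2.06 and 1.33 CPM in FUDR and 2.20, 3.21 and 2.75 CPM in OP50 (−0.83 ± 0.25, edgeR adjusted p = 0.0274). The ceh-86 call was lost on leaving out OP50 replicate 2 or 3 (adjusted p = 0.0922 and 0.0648), on leaving out FUDR replicate 1 or 3 (0.0611 and 0.0600), under upper quartile scaling (0.0543) and under library size only (0.0827).

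Transcripts of oocytes and the germ line fell in the same libraries as these members. Of 20 such genes 17 were lower and 0 higher, with a median log2 fold change of −0.98. Among all tested genes 21.0 percent were lower. Of those of at least 5 CPM 32.2 percent were lower, with a median of −0.10. The summed level of the 20 genes was 6218, 5761 and 4615 CPM in FUDR and 10171, 10369 and 10133 CPM in OP50. They included the yolk receptor gene rme-2 (280 CPM in FUDR and 683 CPM in OP50) and the eggshell gene cbd-1 (619 CPM in FUDR and 1958 CPM in OP50). Oocyte transcripts were thus abundant in both groups, although all worms were labelled as L4. Whether the worms were at that stage was not tested. The part of the germ line in the lower ceh and tbx levels was not tested, and in whole worms fewer cells of a type and less RNA per cell cannot be told apart. In the list of early embryonic markers, med-1 and med-2 had at most 4 counts in any library, while others passed the filter. Of 13 tested in that list of 20, 0 were higher and 3 lower, a called share of 23.1%. The summed level was 94.4 to 117 CPM in FUDR and 125 to 144 CPM in OP50. The 3 lower genes were lin-26, vet-2 and vet-6. On leaving out 1 library, the log2 fold change ran from −1.55 to −1.14 for vet-2 and from −2.51 to −1.42 for vet-6. The vet-6 call was lost on leaving out OP50 replicate 2 (edgeR adjusted p = 0.0502).

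**Figure D5:**
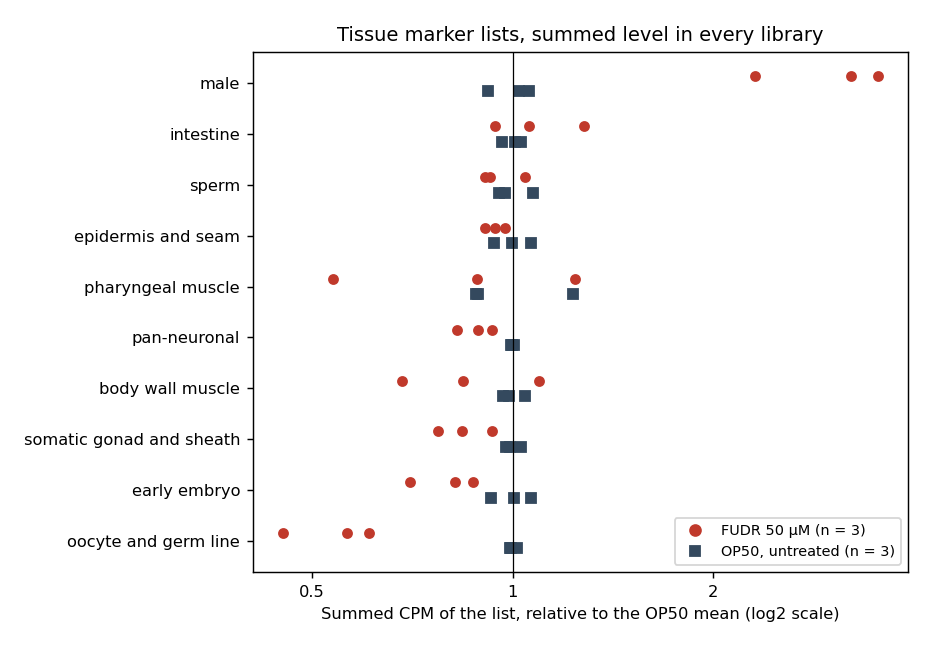
Summed CPM of 10 tissue marker lists in each library, divided by the mean of the OP50 libraries, on a log2 axis, with FUDR libraries as red circles and OP50 libraries as dark squares (3 each). The oocyte and germ line sums lie between 4615 and 6218 CPM in FUDR and between 10133 and 10369 CPM in OP50, the male sums are above OP50 in every FUDR library, and the sums of the intestine, sperm, epidermis, pharyngeal muscle and body wall muscle lists overlap between the groups.

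The other tissue lists had smaller called shares than the oocyte and germ line list, 85% of which was called. Called were 57.1% of tested intestine genes and 46.7% of somatic gonad and sheath genes, where 41.0% of all tested genes were. The shares were 28.6% for pharyngeal muscle, 25% for sperm, 23.5% for epidermis and seam and 6.25% for body wall muscle. Body wall muscle had 1 of 16 genes higher and 0 lower (13296 to 21292 CPM summed in FUDR and 18834 to 20309 CPM in OP50), but 8 lower on leaving out FUDR replicate 1. Intestine had 5 of 14 higher and 3 lower (7079 to 9616 CPM in FUDR and 7231 to 7722 CPM in OP50), with 2 higher on leaving out OP50 replicate 1 or FUDR replicate 2 and 3 higher on leaving out OP50 replicate 2 or 3. Epidermis and seam had 2 of 17 higher and 2 lower (461 to 494 CPM in FUDR and 475 to 541 CPM in OP50), with 1 higher on leaving out OP50 replicate 2 or 3 or FUDR replicate 2 or 3 and 4 lower on leaving out OP50 replicate 2. Somatic gonad and sheath had 3 of 15 higher and 4 lower (282 to 340 CPM in FUDR and 357 to 376 CPM in OP50), with the gonad precursor gene ehn-3 at 0 in every library. Sperm genes had 3 of 20 higher and 2 lower (546 to 628 CPM in FUDR and 573 to 646 CPM in OP50), with 1 lower on leaving out OP50 replicate 1 or 2 or FUDR replicate 2 and 4 lower on leaving out FUDR replicate 1. Pharyngeal muscle had 2 lower on leaving out FUDR replicate 1.

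Homeobox genes under other names, 39 tested, gave 4 higher and 1 lower, with a median log2 fold change of 0.19. This is 12.8% called, where 41.0% of all tested genes were. Beside the Hox genes above, the higher one was nsy-7, which sets left-right identity of the AWC neurons, with 8.80, 7.35 and 8.85 CPM in FUDR and 6.66, 6.22 and 6.0 CPM in OP50 (0.40, edgeR adjusted p = 0.0277). It was lost on leaving out OP50 replicate 2 or 3 (adjusted p = 0.0902 and 0.0968) or FUDR replicate 1 or 3 (0.0675 and 0.0587). The count of 4 became 1 on leaving out OP50 replicate 2 or 3 and 2 on leaving out FUDR replicate 2. The caudal homologue pal-1, whose maternal mRNA is stored in oocytes, was lower, with 51.7, 54.2 and 49.4 CPM in FUDR and 67.6, 73.9 and 71.9 CPM in OP50 (−0.46, edgeR adjusted p = 0.00203).

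Among 3 T-box genes under other names, mls-1, a uterine muscle factor, was higher, with 1.26, 1.32 and 1.30 CPM in FUDR and 0.978, 0.794 and 0.673 CPM in OP50 (0.66, edgeR adjusted p = 0.0424). The autosomal signal element sea-1, which counters X-signal elements such as ceh-39 at xol-1, was lower, with 4.65, 3.89 and 3.79 CPM in FUDR and 6.53, 6.32 and 4.96 CPM in OP50 (−0.53, edgeR adjusted p = 0.0235). The third, mab-9, was not called. The mls-1 call was lost on leaving out OP50 replicate 2 (adjusted p = 0.107) or 3 (0.131), on leaving out FUDR replicate 1 (0.0728), 2 (0.113) or 3 (0.0799), without a filter (0.0715) and with the replicate number as a block (0.0650). The sea-1 call was lost on leaving out OP50 replicate 1 (0.0766) or 2 (0.0790) or FUDR replicate 2 (0.0908), under upper quartile scaling (0.0753) and under library size only (0.147).

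Most corepressors that homeobox and T-box proteins can recruit fell. Of 11 tested, 9 were lower and 0 higher, with a median log2 fold change of −0.60, and 9 were lower whichever library was left out. All 11 have means of at least 5 CPM, where 32.2 percent of all tested genes were lower and the median log2 fold change was −0.10. The Groucho homologue unc-37 had 37.1, 39.0 and 35.8 CPM in FUDR and 56.7, 58.2 and 55.3 CPM in OP50 (−0.61 ± 0.0746, edgeR adjusted p = 0.00051). Also lower were its partner lsy-22 (39.7 CPM in FUDR and 71.9 CPM in OP50), the histone-binding gene lin-53 (115 CPM in FUDR and 175 CPM in OP50) and the Rb homologue lin-35 (64.8 CPM in FUDR and 97.7 CPM in OP50). Many of these genes are also expressed in the germ line, whose part in this was not tested. Of 44 tested paired box and other developmental factors, 20.5% were called against 41.0% of all tested genes, 6 higher and 3 lower, with a median of 0.13. Those with the smallest p were egl-43 (0.94) and nhr-67 (1.72), which were higher, and the epidermal gene lin-26 (−0.58) and hlh-2 (−0.60), which were lower. Both egl-43 and nhr-67 act in the anchor cell, and so does hlh-2. Other anchor cell genes, lin-3 (−0.73) and cdh-3 (−0.68) of the somatic gonad list, were lower. The list of paired box and other developmental factors had 3 higher on leaving out OP50 replicate 1 or FUDR replicate 2. It had 5 lower on leaving out FUDR replicate 1.

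Levels of members can be set against each other only per length. In OP50 the range over tested members ran from 0.0187 CPM per kb of exon for tbx-43 to 33.2 CPM per kb for ceh-38. The lower end is set by the filter, which tbx-43 passed through its FUDR counts alone. The leading genes were ceh-38 with 23.8 CPM per kb in FUDR and 33.2 CPM per kb in OP50, ceh-100 with 15.4 in FUDR and 25.7 in OP50, and ceh-92 with 19.0 in FUDR and 18.7 in OP50. The third of these was not called, as ceh-92 had 51.8, 48.2 and 39.2 CPM in FUDR and 48.0, 43.2 and 45.8 CPM in OP50 (0.02 ± 0.110, edgeR adjusted p = 0.890).

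Members that lie close together were called both in the same and in opposite directions. Only members that follow each other along a chromosome, with no other member between them, were paired. Of 13 such pairs within 10000 bases, 7 had both members tested. In 2 pairs both were lower, ceh-82 with ceh-83 and ceh-21 with ceh-39. In 2 others the calls went opposite ways, ceh-57 higher beside ceh-58 lower and ceh-91 higher beside tbx-33 lower, 9221 bases apart. The nearest tested protein-coding gene was read on each side of the 21 called members, 42 in all. Of these, 14 were called in the member's direction, 9 in the other and 19 were not called. This is 23 of 42 called where 41.0% of all tested genes were. The 42 include called members that flank each other, ceh-82 with ceh-83 and ceh-57 with ceh-58, which raises the called count. The gene T26C11.9 is counted for both ceh-21 and ceh-39. By chromosome, 8 of the 9 tested members on chromosome II were called, 2 higher and 6 lower, where 40.9 percent of all tested genes there were called. This count was singled out after the values were seen.

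The 22 members that did not pass the filter were 11 ceh and 11 tbx genes, and the highest count of any of them in a library was 13. Of these, 4 had no count in any library: ceh-28, ceh-75, tbx-32 and tbx-35, of which tbx-35 specifies embryonic mesoderm. A further 5 had between 1 and 3 counts over all libraries. In examples chosen after the values were seen, ceh-7 had 2, 9 and 11 counts in FUDR and 0, 1 and 2 counts in OP50, ceh-87 had 1, 3 and 2 counts in FUDR and 0 in every OP50 library, and tbx-38 had 0, 1 and 2 counts in FUDR and 5, 10 and 2 counts in OP50. When the filter was dropped, 0 of these members were called by edgeR, with adjusted p from 0.132 upward.

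The scale sets the balance of rises and falls. With library size only, all tested genes together had a median log2 fold change 0.23 higher, and 34.2 percent of tested genes were then higher and 11.3 percent lower. Of the members, 15 were then higher and 10 lower. The 7 added rises were ceh-5, ceh-18, ceh-34, ceh-37, ceh-60, ceh-88 and tbx-34, and the 3 falls no longer called were ceh-21, ceh-86 and ceh-40. Of the 21 called members, 14 (4 higher and 10 lower) were called whichever library was left out and under every other alternative in which they were tested.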

How the data were processed

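Read counts per gene, raw and as deposited, were used for 3 FUDR and 3 OP50 libraries. Per the submitters' processing notes the tools were STAR and HTSeq and the build WBcel235, with no versions or strand setting stated in the sources used here. Per the labels' protocols, RNA was poly(A)-selected and prepared with NEBNext Ultra kits. The 5 HTSeq summary rows (4.55% to 5.33% of counts) were left out. Symbols, positions and exon lengths came from the Ensembl release 115 annotation, which matched all 46926 identifiers.

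Genes were tested in R 4.3.3 with edgeR 4.0.16 (filterByExpr with minimum count 10 and minimum total 15, TMM, robust quasi-likelihood F test, Benjamini-Hochberg adjustment, threshold 0.05), which was tested on simulated data. The SE is the log2 fold change divided by the square root of F. Alternatives were RLE and upper quartile scaling, library size only, no filter, 1 CPM in 3 libraries, DESeq2 1.42.0, limma-voom (limma 3.58.1), a replicate block and leaving out each library. Libraries of the same group differed by more than sampling noise (chi-square per degree of freedom at least 18.7), so all 6 were kept.

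The members and the 14 gene lists (4 of related factors, 10 of tissues) were chosen with earlier results of these data known. Of 264 symbols written, 261 were found, and 16 stand in more than 1 list. Named are all called members, the 3 ceh and 2 tbx genes with the highest OP50 counts per kb, and up to 4 genes of each list by smallest p. Other members, and mab-5, lin-39, egl-5, unc-62 and psa-3, were named for their roles after their values were seen. Protein classes of ceh genes were assigned by hand. No DNA or protein sequence is printed.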

Additional observations from a re-analysis of the deposited data

How the results depend on the processing

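No called member and no other named gene past the threshold changed direction under the alternatives run. With library size only, 5814 genes were higher and 1931 lower, against 3397 and 3582 with TMM, 15 members were higher against 8, 27 genes of the related lists against 11 and 45 genes of the tissue lists against 26. With upper quartile scaling 21 genes of the related lists were higher, and 10 members were higher and 10 lower. The share of calls that were higher was 75.1% with library size only, 66.6% under the upper quartile and 48.7% with TMM, and the upper quartile moved the median of all genes by 0.15 on the log2 scale. Leaving out 1 library gave 2327 to 3400 genes higher and 2679 to 3834 lower, 4 to 7 members higher and 10 to 13 lower, 5 to 13 related genes higher and 12 to 17 lower, and 17 to 26 tissue genes higher and 33 to 51 lower. Members higher numbered 5 without OP50 replicate 2 or 3 and 4 without FUDR replicate 2, related genes higher 5 without any of those 3 libraries, and tissue genes higher 17 without OP50 replicate 2. The cause was not tested. DESeq2 called 7 members higher and 13 lower, limma-voom 8 and 13. The filter of 1 CPM left 37 members tested, with 7 higher and 11 lower. Whether replicate numbers pair the libraries is not stated in the labels. Deviations of same-numbered libraries correlated at 0.0551, −0.0166 and 0.0576, and 2 of 3 FUDR libraries correlated best with their own number. With 3 libraries per group these values cannot settle it. With the replicate block all genes called higher numbered 3215 and all genes called lower 3547, and 7 members were higher (without ceh-57) and 13 lower. Over the named genes, 977 values kept their side of the threshold, 81 lost a call and 26 gained one.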
